A study of Homo sapiens with 8 samples.

Results

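The 8 keratin genes KRT5, KRT7, KRT8, KRT18, KRT19, KRT20, KRT23 and KRT80, chosen by name as simple and basal-type keratins, were followed in 2 colorectal adenocarcinoma cell lines, SW480 and SW620, out of 62649 genes counted in each library. Poly-A RNA was sequenced from untreated SW480 (control), SW480 given caffeine, untreated SW620 and SW620 given caffeine, with 2 libraries in each of the 4 groups. All 4 groups carried a fluorescent immunoproteasome fusion (B8-mCherry), and SW480 and SW620 are established lines derived from a primary colon tumour and from a lymph node metastasis of the same patient. The treatment label speaks of SW620 alone: 72 hours of caffeine at doses between 30 and 500 µM, or 125 µM kept up over 28 days. Which of these the sequenced libraries had is not given in the sources used here. Replicates are called biological in the labels, without saying whether they were separate cultures on separate days. P-values therefore measure the spread between these libraries.

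Keratins are the intermediate filament proteins of epithelial cells. A filament needs both families in equal amounts, an acidic type I keratin (here KRT18, KRT19, KRT20 and KRT23) and a basic type II keratin (here KRT5, KRT7, KRT8 and KRT80). KRT8 and KRT18 are the founding pair of simple epithelia such as the gut lining, KRT19 and KRT20 are further type I partners there, and KRT20 marks differentiated intestinal cells. KRT7 is typical of ductal and glandular epithelia other than the colon, and KRT5 is typical of the basal layer of stratified epithelia, where its usual partner is KRT14.

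On GRCh38 (GENCODE 29) the type II genes and KRT18 lie in 1 cluster on chromosome 12 and the other type I genes in another on chromosome 17. KRT80 lies at chr12:52168996-52192000, KRT7 at chr12:52232520-52252186, KRT5 at chr12:52514575-52520687, KRT8 at chr12:52897187-52949954 and KRT18 at chr12:52948871-52952901. KRT20 lies at chr17:40875941-40885227, KRT23 at chr17:40922696-40937634 and KRT19 at chr17:41523617-41528308. Annotated exons of KRT8 and KRT18 share 525 bases on opposite strands, those of KRT7 share 314 bases with KRT7-AS and KRT87P and those of KRT23 share 186 bases with AC004231.1, also on opposite strands, and the strand setting, which decides where such reads go, is not given in the sources used here.

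The RefSeq promoter table (GRCh38.p14) held 3 of the 8 members. Their last 100 bases before the annotated start are shown because they stand for the 3 patterns described next: a gene read in SW480 at about the level of the KRT8 and KRT18 pair (KRT5, chr12:52520395-52520494, minus strand), a gene high in both lines (KRT8, chr12:52926470-52926569, minus strand) and a gene near 0 counts in SW480 (KRT20, chr17:40885243-40885342, minus strand). The annotated starts are those of RefSeq and differ from the GENCODE 29 gene boundaries. The KRT8 and KRT5 windows lie inside their GENCODE spans, which reach chr12:52949954 and chr12:52520687. The KRT20 window lies outside its span, which ends at chr17:40885227. The bases before the GENCODE starts of KRT8 and KRT5 were not examined. Capitals mark each match to the letters TTTAT read on either strand, the core of sites for the CDX gut homeobox factors.
KRT5: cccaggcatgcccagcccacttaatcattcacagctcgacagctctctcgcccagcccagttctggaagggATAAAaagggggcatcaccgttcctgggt
KRT8: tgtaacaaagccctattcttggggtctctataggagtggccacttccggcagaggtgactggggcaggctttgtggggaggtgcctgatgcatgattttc
KRT20: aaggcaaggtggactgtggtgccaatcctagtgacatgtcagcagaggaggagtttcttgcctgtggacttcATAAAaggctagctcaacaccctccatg
In the 250 bases before the RefSeq start, KRT20 held 3 such matches, KRT5 held 1 and KRT8 none. Of 35116 promoter windows of that length, 32.7% held at least 1. The match nearest the start began 29 bases before it in KRT5 and 28 bases before it in KRT20. None of the 3 windows held TATAAA, which 10.7% of all windows held, or the AP-1 letters TGANTCA, which 6.57% held. The marked letters ATAAA are also the end of TATAAA, the letters of a TATA box. A match therefore does not tell a CDX site from a TATA-like one, and neither was tested. These matches describe the letters only.

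The libraries held 15760259 to 23269315 assigned reads, and levels are given as CPM (reads relative to the library total) after TMM scaling. A gene with 0 reads could have had up to 3 counts (95% limit), or 0.129 to 0.190 CPM per library. SW480 caffeine replicate 2 stood apart, in that mitochondrial genes took 1.63% of its reads, while the remaining 7 ranged from 4.38% to 6.16%. Replicates differed more in SW480 than in SW620. The chi-square per degree of freedom between the 2 libraries of a group was 21.1 in SW480 controls and 41.8 with caffeine. In SW620 it was 2.96 and 10.6. The tests below used 1 estimate of the spread per gene for all groups. The epithelial label was checked on EPCAM and VIL1, which stood at 167 and 57.4 CPM in the SW480 controls and 701 and 434 CPM in the SW620 controls, and on E-cadherin (CDH1), which stood at 0.804 CPM in the SW480 and 195 CPM in the SW620 controls. The leukocyte marker PTPRC was at 0 counts in all SW620 and in the untreated SW480 libraries. The 10 fibroblast markers summed to 5.99 to 7.66 CPM in SW480 and to 37.8 to 48.6 CPM in SW620, where LUM alone held 31.8 CPM in the controls. Of the same list COL3A1 and DPT were at 0 counts in all 8 libraries, PDGFRB stood at 1.008 to 2.97 CPM in the group means, and COL1A1 rose with caffeine in SW620 from 6.04 ± 0.398 to 14.9 ± 0.322 CPM (mean ± SD, n = 2; edgeR adjusted p = 0.000193). In bulk RNA, fewer cells of a type and less RNA per cell cannot be told apart.

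The first comparison asked how the keratin mix of the untreated lines differed. KRT5 had the largest fold among the 7 members with reads in the controls of both lines: it was about 700.4-fold lower in SW620 than in SW480. KRT7 was 20.2-fold, KRT8 2.34-fold, KRT19 2.08-fold and KRT80 1.60-fold higher in SW620, and KRT23 was 1.96-fold lower. KRT20 was at 0 counts in the SW480 controls and at 24 counts in the SW620 controls. KRT18 differed by 1.31-fold, a call that some libraries decided. All 8 members were called by edgeR's quasi-likelihood test (adjusted p under 0.05 over 17671 tested genes), 6 higher and 2 lower in SW620. Since 65.6% of all tested genes were called in this comparison (33.0% higher and 32.6% lower in SW620), the count of calls sets the keratins little apart, and the sizes carry the description.

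KRT5, the basal type II keratin, had 2696 and 2955 CPM in untreated SW480 and 4532 and 4627 CPM in SW480 given caffeine. In SW620 its levels were 3.49 and 4.56 CPM without and 3.21 and 2.92 CPM with caffeine, from 54 to 91 reads per library and so above the floor of 3 counts. The lines did not overlap, and in every SW480 library KRT5 ranked between 4 and 16 among all genes by read count, while in SW620 it ranked between 11108 and 11770. Between the controls its log2 fold change (SW620 against SW480) was -9.45 ± 0.20 (SE, n = 2 per group, edgeR adjusted p = 3.73e-15).

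KRT14, the usual type I partner of KRT5, had 0 counts in the controls of both lines and 1 count over the 4 caffeine libraries. TP63, a transcription factor of basal epithelium, had 0 counts in all 4 SW480 libraries and stood at 0.101 CPM in the SW620 controls. The basal type I keratins KRT15 and KRT17 stood at 0.953 ± 0.192 and 0.235 ± 0.246 CPM (mean ± SD, n = 2) in the SW480 controls, and at 13.8 ± 0.0234 and 6.995 ± 1.31 CPM in the SW620 controls. Other basal and squamous markers went both ways. TRIM29 and S100A2 had the same order between the lines as KRT5. TRIM29 stood at 156 ± 2.79 CPM in the SW480 and 57.3 ± 2.74 CPM in the SW620 controls, and S100A2 at 37.5 ± 10.6 and 10.5 ± 0.000594 CPM. SERPINB5 had the opposite order, with a log2 fold change (SW620 against SW480) of 4.79 ± 0.41 (SE, edgeR adjusted p = 2.39e-08). Of the 7 tested markers of that list, 3 were called higher and 4 lower in untreated SW620, against 33.0% and 32.6% of all tested genes.

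KRT8 had 2092 and 2697 CPM in the SW480 controls and 5677 and 5513 CPM in the SW620 controls. All SW620 values of KRT8 lay above all SW480 values, with a log2 fold change of 1.22 ± 0.15 (SE, edgeR adjusted p = 1.85e-06). Its partner KRT18 had 1849 and 2528 CPM in the SW480 controls and 2829 and 2923 CPM in the SW620 controls, a log2 fold change of 0.39 ± 0.16 (adjusted p = 0.0376). The KRT18 groups did not overlap, but the call was lost without SW480 control replicate 1 (log2 fold change 0.19, adjusted p = 0.285), without SW620 control replicate 1 (adjusted p = 0.116) and without SW620 control replicate 2 (adjusted p = 0.164). KRT8 and KRT18 have many processed pseudogenes, and reads of low mapping quality, 13.3% to 17.5% of each library, were left out of the counts. Reads counted on the 51 KRT8 pseudogenes came to 0.941% to 1.60% of the KRT8 reads, and those on the 67 KRT18 pseudogenes to 0.101% to 0.137% of the KRT18 reads.

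KRT19, the smallest keratin and a partner of KRT8, had 315 and 422 CPM in the SW480 controls and 775 and 760.1 CPM in the SW620 controls (log2 fold change 1.06 ± 0.16, adjusted p = 1.47e-05, edgeR). KRT23, a type I keratin of glandular epithelium, had the opposite order, with 353 and 379 CPM in SW480 and 186.4 and 186.3 CPM in SW620 (log2 fold change -0.97 ± 0.14, adjusted p = 8.14e-06). KRT80, a type II keratin widely found in epithelia, had 95.7 and 86.4 CPM in SW480 and 151 and 140.1 CPM in SW620 (log2 fold change 0.68 ± 0.12, adjusted p = 0.000101). None of the 3 overlapped between the lines. Overlap was not counted over all tested genes, so its lack does not set these keratins apart. When any 1 library was left out, the log2 fold change stayed between 0.86 and 1.26 for KRT19. It stayed between -1.02 and -0.95 for KRT23 and between 0.58 and 0.75 for KRT80.

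KRT7 and KRT20 are the pair whose protein staining pathologists read together in colorectal tumours, which are typically positive for KRT20 and negative for KRT7. The values given here are RNA levels, and protein was not measured in these libraries. KRT7 had 14 and 20 reads (0.847 and 1.17 CPM) in the SW480 controls and 434 and 382 reads (21.96 and 19.1 CPM) in the SW620 controls, with a log2 fold change of 4.34 ± 0.22 (SE, edgeR adjusted p = 2.73e-11). KRT20 had 0 and 0 reads in the SW480 controls and 12 and 12 reads (0.607 and 0.601 CPM) in the SW620 controls. Against a floor of 3 counts over the SW480 controls KRT20 was at least 6.78-fold higher in SW620, a bound that takes the 24 reads as exact (edgeR adjusted p = 0.000253). Per kilobase of exon, KRT7 exceeded KRT20 in both lines: 5.02 ± 0.487 against 0.327 ± 0.00224 CPM per kilobase (mean ± SD, n = 2) in the SW620 controls.

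**Figure D1:**
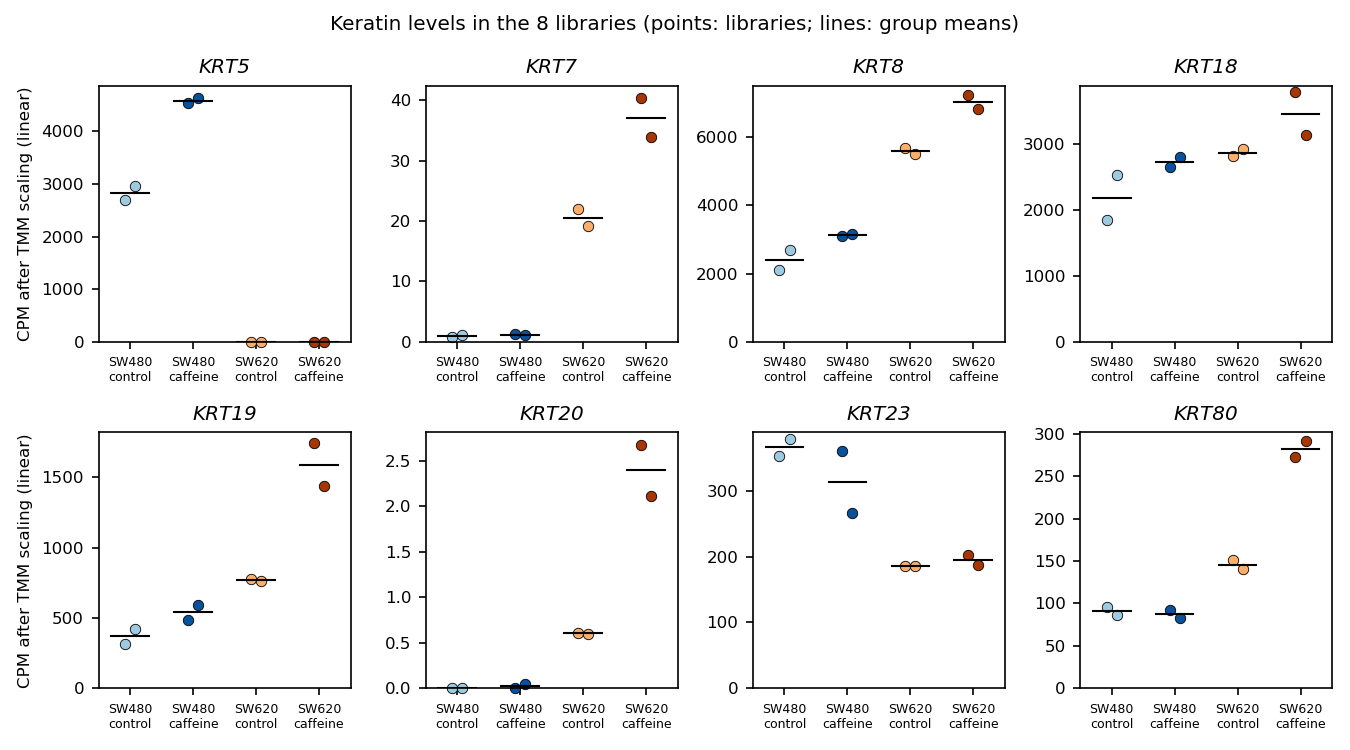
Levels of the 8 keratins by group, in CPM after TMM scaling on linear axes that start at 0. Each point is 1 library and each line a mean of 2 libraries; KRT5 stands at 2696 to 4627 CPM in SW480 and at 2.92 to 4.56 CPM in SW620, while the SW620 caffeine libraries hold the highest KRT7, KRT19, KRT20 and KRT80.

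Levels of different keratins were compared per kilobase of annotated exon. In the SW480 controls the order was KRT18 at 680.2 CPM per kilobase, KRT5 at 658, KRT8 at 348, KRT19 at 158, KRT23 at 126, KRT80 at 20.9, KRT7 at 0.246 and KRT20 at 0. KRT18 (575 and 786) and KRT5 (628 and 689) overlapped there and do not have an order beyond their spread, while KRT5 and KRT18 both lay above KRT8 (304 and 392). KRT19 (135 and 181) lay just above KRT23 (122 and 131). In the SW620 controls KRT18 stood at 894, KRT8 at 813, KRT19 at 329, KRT23 at 64.2, KRT80 at 33.4, KRT7 at 5.02, KRT5 at 0.938 and KRT20 at 0.327 CPM per kilobase, with no overlap between neighbours in that order. The length used matters for the top of the order: by the longest annotated transcript, KRT5 (1065 and 1168) and KRT18 (886 and 1211) again overlapped in the SW480 controls, but KRT18 then also overlapped KRT8 (731 and 942). By that length KRT8 led in the SW620 controls (1984 and 1926, against 1355 and 1400 for KRT18).

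Of the summed level of the 8 keratins, KRT5 made up 33.3% ± 2.72 in SW480 without and 39.1% ± 0.306 with caffeine, against 0.0438% ± 0.00829 and 0.0245% ± 0.000701 in SW620 (mean ± SD, n = 2). KRT8 and KRT18 held 38.0% ± 0.740 and 41.8% ± 1.02 in the SW620 controls, and 17.4% ± 0.574 and 34.0% ± 2.52 in the SW480 controls. KRT19 moved from 15.4% ± 0.194 in the SW620 controls to 23.3% ± 0.988 with caffeine, and in SW480 from 7.89% ± 0.471 to 8.45% ± 0.957. The KRT8 and KRT18 shares depend on the length used. By the longest annotated transcript they were 48.5% and 34.2% in the SW620 controls (means, n = 2), which reverses their order. In the SW480 controls the KRT8 share was also larger and the KRT18 share smaller by that length, with KRT18 still above KRT8. All these shares are descriptions of chosen genes and were not tested.

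**Figure D2:**
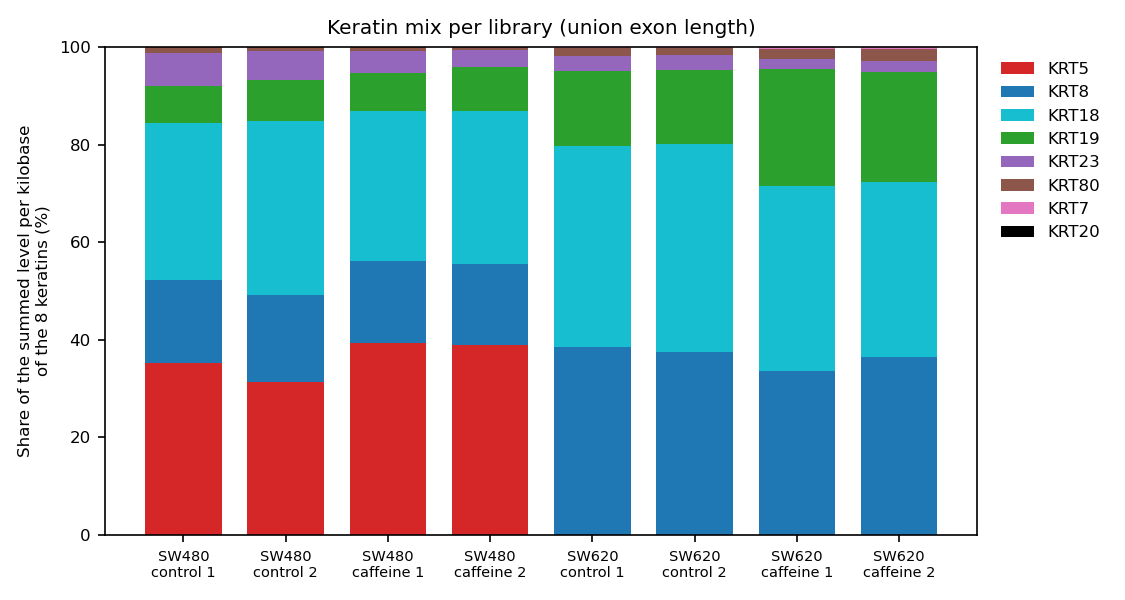
Share of each keratin in the summed CPM per kilobase of the 8 keratins, 1 bar per library, in percent. KRT5 fills 31.3% to 39.3% of the SW480 bars and is too small to see in SW620, and the KRT19 part grows from 15.2% and 15.5% in the SW620 controls to 22.6% and 23.97% with caffeine.

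Summed over all 55 keratin genes, the type II level divided by the type I level was 1.17 and 1.03 in untreated SW480, 1.34 and 1.30 in SW480 given caffeine, 0.661 and 0.631 in untreated SW620 and 0.556 and 0.633 in SW620 given caffeine. All 4 SW480 libraries lay above all 4 SW620 libraries. The same order held by the longest transcript (1.26 to 1.61 in SW480 and 0.815 to 0.994 in SW620), so that the distance from 1 depends on the length used. The 8 members held 97.0% to 98.1% of the keratin level per kilobase in each library. Their reads were 0.744% and 0.886% of all assigned reads in untreated SW480, 1.11% and 1.17% in SW480 given caffeine, 0.972% and 0.964% in untreated SW620 and 1.33% and 1.19% in SW620 given caffeine.

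The other 47 keratin genes were then placed in gene order. Of these 16 were tested and all 16 were called between the untreated lines, 6 higher and 10 lower in SW620, against the same 65.6% of all genes; 12 had no read in any library. Around KRT5 on chromosome 12, KRT75, KRT6B, KRT6A, KRT71 and KRT74, keratins of hair follicle or stressed epidermis, were all lower in SW620. KRT6A stood at 20.7 ± 0.948 CPM in the SW480 and 0.176 ± 0.0368 CPM in the SW620 controls (log2 fold change -6.83 ± 0.32, SE, edgeR adjusted p = 7.10e-12). KRT74 had 846 reads over the SW480 and 3 over the SW620 controls, 332.7 times as many per CPM (95% counting interval 113 to 1617). KRT71 had 166 and 3 reads, a ratio of 65.3 (21.96 to 319.8), and KRT75 stood at 6.32 against 0.126 CPM. KRT6C, which lies among them, had 3 reads over the SW480 controls and 0 over the SW620 controls. The run from KRT75 to KRT74 was picked out after its values were seen, and no test of the run was made.

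Between KRT7 and KRT75 on chromosome 12, KRT81 and KRT83 were lower in SW620 (log2 fold changes -2.53 ± 0.20 and -4.37 ± 0.38, SE, edgeR adjusted p = 6.02e-09 and 2.52e-08). KRT83 stood at -3.76 without SW620 control replicate 1 and at -5.44 without the other. KRT86 was higher (0.85 ± 0.27, adjusted p = 0.0102), a call lost without SW480 control replicate 1 (0.145) or SW620 control replicate 2 (0.0745), and its value was 1.46 without SW480 control replicate 2. These 3 hair keratins, like KRT6A, KRT6B and KRT6C, are near-identical copies, and KRT16 and KRT17 are related to each other. Counting could have divided reads between such genes, which was not tested. On chromosome 17 the hair keratin KRT40, the second gene past KRT23, had 2 reads over the SW480 and 1612 over the SW620 controls, a ratio of 683 (counting interval 189 to 5645). KRT39, which lies between KRT23 and KRT40, stood at 0.867 against 18.5 CPM (log2 fold change 4.41 ± 0.27, adjusted p = 2.75e-10). KRT15 and KRT17 were higher in SW620 by log2 values of 3.85 ± 0.22 and 4.84 ± 0.41 (adjusted p = 1.40e-10 and 2.12e-08). The KRT17 value rests on 1 and 7 reads in the SW480 controls and was 4.08 without replicate 1 and 6.68 without replicate 2 of them. KRT16 was at least 6.21-fold higher in SW620 and KRT36 at least 27.1-fold lower, each against 0 counts with a floor of 3. KRT10, a keratin of differentiating epidermis, was lower in SW620 (log2 fold change -0.60 ± 0.17, adjusted p = 0.00595, and 0.0516 without SW480 control replicate 2).

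**Figure D3:**
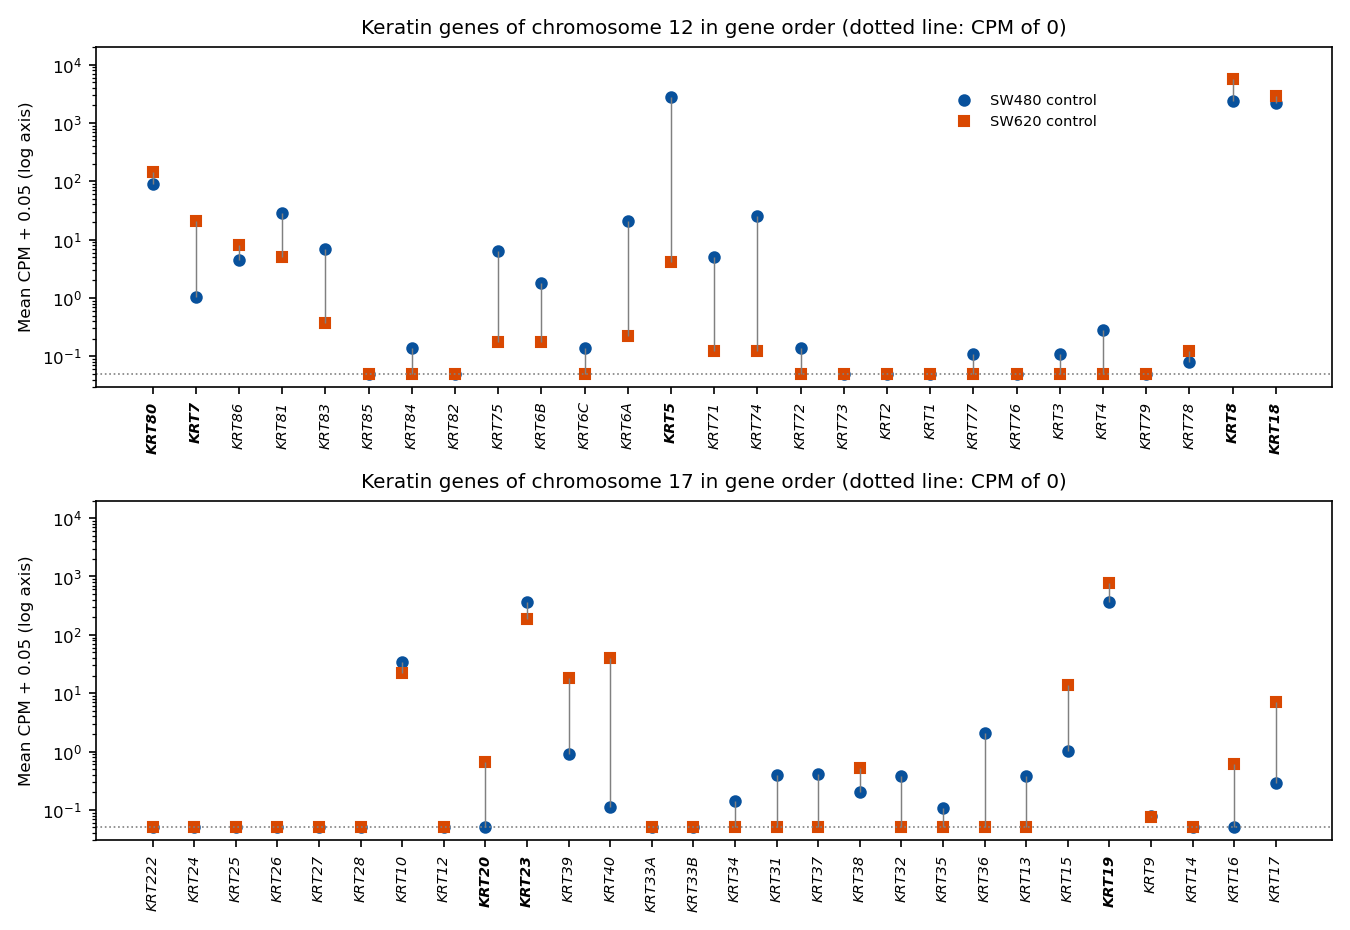
Mean CPM of the 55 keratin genes in the control libraries of SW480 and SW620 (n = 2 each), in gene order along chromosomes 12 and 17, on a log axis after adding 0.05, with the 8 members in bold. The SW480 points lie above the SW620 points for KRT75, KRT6B, KRT6A, KRT5, KRT71 and KRT74, and below them for KRT39, KRT40, KRT15, KRT16 and KRT17.

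The next comparison asked which keratins changed with caffeine in SW620. Of the 8 members, 4 rose and none fell: KRT19 about 2.07-fold, KRT80 1.94-fold, KRT7 1.81-fold and KRT20 3.92-fold. In this comparison 14.4% of all tested genes were called, 8.10% higher and 6.25% lower. KRT8 and KRT18 had somewhat higher levels with caffeine but were not called, and KRT5 and KRT23 were not called either. The median log2 fold change of the 8 was 0.59, against -0.01 over all tested genes.

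KRT19 had 775 and 760.1 CPM in the SW620 controls and 1748 and 1436 CPM with caffeine, with no overlap (log2 fold change 1.05 ± 0.16, SE, n = 2 per group, edgeR adjusted p = 0.000259). KRT80 had 151 and 140.1 CPM without and 272 and 291 CPM with caffeine (0.95 ± 0.12, adjusted p = 5.38e-05). For KRT7 the values were 21.96 and 19.1 CPM without and 40.4 and 33.9 CPM with caffeine (0.85 ± 0.15, adjusted p = 0.00101). In all 3 both caffeine libraries lay above both controls, an order that was not counted over all tested genes.

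KRT20, the keratin of differentiated gut cells, had 12 and 12 reads in the SW620 controls and 45 and 42 reads with caffeine, that is 0.607 and 0.601 against 2.68 and 2.11 CPM. Its log2 fold change was 1.97 ± 0.39 (SE, edgeR adjusted p = 0.00304), on few reads, and DESeq2 gave it no adjusted p. These 4 calls were kept by edgeR when any 1 library was left out, with adjusted p of at most 0.00823 (KRT19), 0.00462 (KRT80), 0.0418 (KRT7) and 0.0469 (KRT20).

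KRT8 had 7236 and 6823 CPM with caffeine against 5677 and 5513 CPM without in SW620, groups that did not overlap. Its log2 fold change was 0.33 with a 95% interval from 0.02 to 0.64 (edgeR adjusted p = 0.156), and it passed the threshold in a separate fit of SW620 (adjusted p = 0.0141) and without SW480 control replicate 1 (0.0498). For KRT18 the values were 3791 and 3138 CPM with and 2829 and 2923 CPM without caffeine (0.27, interval -0.07 to 0.60, adjusted p = 0.289). KRT23 stood at 202 and 187.3 against 186.4 and 186.3 CPM (0.06, interval -0.22 to 0.35, adjusted p = 0.811). KRT5 in SW620 had 54 and 58 reads with and 69 and 91 without caffeine (-0.40, interval -0.82 to 0.03, adjusted p = 0.214). None of these 4 was shown to be unaffected, since each interval allows changes of some size.

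In SW480 the question was the same, and 1 of the 8 members, KRT5, was called: it rose 1.62-fold. Here 3.60% of all tested genes were called, 1.67% higher and 1.93% lower, and the median over the 8 members was 0.35 against 0.00 over all genes. KRT5 had 2696 and 2955 CPM without and 4532 and 4627 CPM with caffeine, with a log2 fold change of 0.70 ± 0.14 (SE, n = 2 per group, edgeR adjusted p = 0.0122). The groups did not overlap, and the value was 0.68 without SW480 caffeine replicate 2, the library with the low mitochondrial share, although the call was then lost (adjusted p = 0.0991). In the fit without mitochondrial genes the 1 call among the members remained.

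KRT19 in SW480 had 315 and 422 CPM without and 488 and 592 CPM with caffeine, and just missed the threshold (log2 fold change 0.55, interval 0.22 to 0.88, edgeR adjusted p = 0.0594). It passed when genes with low counts were kept (adjusted p = 0.00207), by DESeq2 (0.0278), and when either SW480 control replicate 2 (0.00934) or the first SW480 caffeine library (0.0422) was left out. KRT8 had 2092 and 2697 CPM without and 3104 and 3171 CPM with caffeine (0.39, interval 0.08 to 0.70, adjusted p = 0.157), and KRT18 1849 and 2528 against 2658 and 2804 CPM (0.32, interval -0.02 to 0.65, adjusted p = 0.282). Both passed without SW480 control replicate 2, the control with the higher values of the 2 genes (adjusted p = 0.0259 and 0.0373). KRT80 had 95.7 and 86.4 CPM without and 92.7 and 83.2 CPM with caffeine, which overlap (-0.05, interval -0.30 to 0.20, adjusted p = 0.867). For KRT23 the caffeine libraries were at 360 and 266 CPM against 353 and 379 CPM (-0.23, interval -0.51 to 0.06, adjusted p = 0.370), and for KRT7 all 4 libraries held 14 to 26 reads (0.19, interval -0.49 to 0.88, adjusted p = 0.794). KRT20 had 0 reads in 3 of the 4 SW480 libraries and 1 read in caffeine replicate 2, so that no fold is given.

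**Figure D4:**
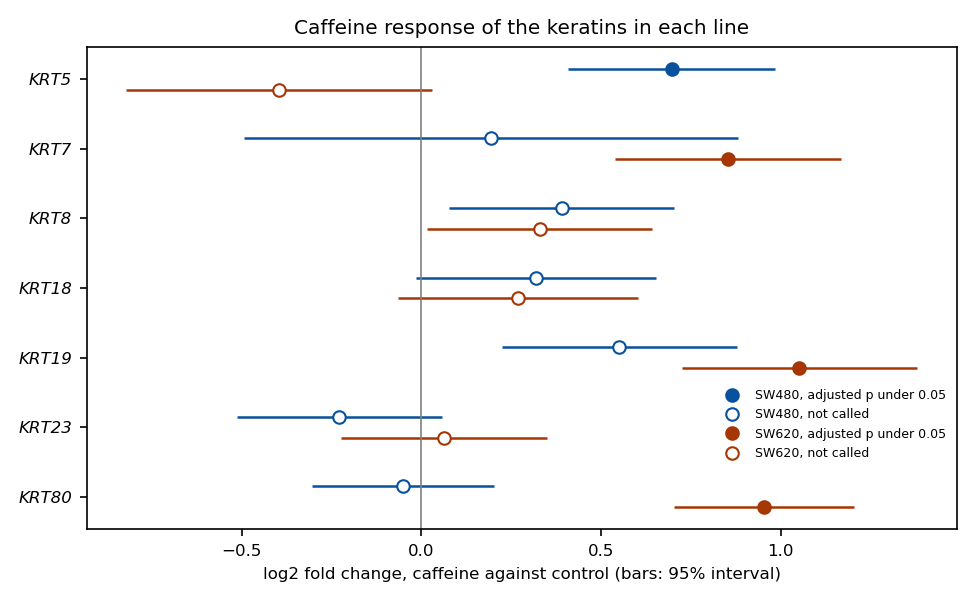
Log2 fold change of caffeine against control for 7 keratins in SW480 and SW620, with 95% intervals from edgeR's fit (n = 2 per group); filled points had an adjusted p under 0.05, and KRT20 is left out because SW480 held 1 read of it. KRT5 is called in SW480 with 0.70, KRT7, KRT19 and KRT80 in SW620 with 0.85 to 1.05, and the KRT8 and KRT18 intervals of the lines cover nearly the same range.

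The difference of the responses was tested as an interaction (SW620 minus SW480), in which 6.71% of all tested genes were called, 4.24% with a higher and 2.47% with a lower response in SW620. Of the 8 members 2 were called, KRT5 and KRT80, with opposite signs. KRT5 gave -1.09 ± 0.24 (log2, SE, edgeR adjusted p = 0.0123), which was lost without SW620 control replicate 2 (-0.89, adjusted p = 0.164) or SW620 caffeine replicate 2 (-1.02, adjusted p = 0.0826) and rests on 54 to 91 reads per library in SW620. KRT80 gave 1.00 ± 0.17 (adjusted p = 0.00183) and kept its call without any 1 library (adjusted p of at most 0.0284). For KRT19 and KRT7, which were called in SW620 and not in SW480, the difference itself was not called: 0.50 (interval 0.04 to 0.96, adjusted p = 0.180) and 0.66 (interval -0.11 to 1.43, adjusted p = 0.297). KRT19 passed without SW480 control replicate 1 (0.70, adjusted p = 0.0384). The differences of KRT8 (-0.06, interval -0.50 to 0.38) and KRT18 (-0.05, interval -0.52 to 0.42) had intervals on both sides of 0, as did that of KRT23 (0.29, interval -0.11 to 0.69).

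Among the other 16 tested keratins, 5 rose and 1 fell with caffeine in SW620, where 14.4% of all tested genes were called. KRT17, a keratin induced in stressed and wounded epithelium, rose from 6.995 ± 1.31 to 18.2 ± 0.971 CPM (mean ± SD, n = 2; log2 fold change 1.38 ± 0.22, SE, edgeR adjusted p = 0.000493) and kept its call without any 1 library. KRT15 (0.77), KRT16 (1.76), KRT86 (1.11) and KRT6B (2.20) rose and KRT39 fell (-0.75), and each of these 5 lost its call without at least 1 SW620 library (adjusted p up to 0.0526, 0.132, 0.0693, 0.299 and 0.137). KRT6B rested on 5 reads without and 22 with caffeine, and its value was 1.55 without SW620 control replicate 1 and 3.41 without replicate 2.

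In SW480, where 3.60% of all tested genes were called, 2 of these 16 rose and 1 fell. KRT6A, which lies next to KRT5, rose from 20.7 ± 0.948 to 36.7 ± 1.51 CPM (log2 fold change 0.82 ± 0.16, SE, edgeR adjusted p = 0.0132, and 0.1004 without SW480 caffeine replicate 2). KRT16 rose from 0 to 15 reads, at least 4.31-fold, a call lost without any 1 of 7 libraries (adjusted p from 0.0514 to 0.158). KRT81 fell from 28.5 ± 7.30 to 17.3 ± 0.592 CPM (-0.72 ± 0.18, adjusted p = 0.0324), a call lost without SW480 control replicate 2 (0.131) and without either caffeine library of SW480 (0.0597 for replicate 1 and 0.274 for replicate 2). KRT81 was also the 1 keratin of the 16 whose response differed between the lines (1.28 ± 0.27, adjusted p = 0.00971), which missed the threshold without SW620 control replicate 2 (0.0595) or SW620 caffeine replicate 1 (0.0504).

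Proteins that tie keratin filaments to desmosomes and to each other were taken as a list of 18 genes, 17 of them tested. Between the untreated lines 8 were higher and 4 lower in SW620 (median log2 difference 0.44, against 0.03 over all genes), a share of calls near the 65.6% of all genes, led by the cytolinker dystonin (DST, 3.63 ± 0.20, SE), PERP (1.42 ± 0.12), plakoglobin (JUP, 1.13 ± 0.11) and plakophilin 2 (PKP2, 1.02 ± 0.12). With caffeine 5 rose and 1 fell in SW620, where 14.4% of all genes were called, and 2 fell in SW480, where 3.60% were. JUP rose in SW620 from 166 ± 2.74 to 297 ± 11.1 CPM (mean ± SD, n = 2; edgeR adjusted p = 9.62e-05) and fell in SW480 from 75.8 ± 0.290 to 49.8 ± 1.24 CPM (adjusted p = 0.0101, and 0.0784 without SW480 caffeine replicate 2). The JUP responses differed by 1.44 ± 0.16 (adjusted p = 4.56e-05). Periplakin (PPL) rose in SW620 from 82.1 ± 0.563 to 157 ± 7.17 CPM (adjusted p = 7.21e-05). PLEC and EPPK1 rose by log2 values of 0.71 and 1.49 and lost their calls without SW620 control replicate 2 (adjusted p = 0.105 and 0.0755) or SW620 caffeine replicate 2 (0.0717 and 0.0744). PERP fell in SW480 (-0.51), a call lost without the second SW480 caffeine library (0.231), the first SW480 control (0.0535), or either SW620 control (0.0686 and 0.0682) and in a separate fit of SW480 (0.0799).

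Of 15 other intermediate filament genes 9 were tested, and 1 rose with caffeine in SW480, where 3.60% of all tested genes were called. In SW620, where 14.4% were called, 3 rose and 1 fell with caffeine. Vimentin (VIM), the filament of mesenchymal cells, rose there from 345 ± 3.01 to 928 ± 90.8 CPM (log2 fold change 1.43 ± 0.15, SE, edgeR adjusted p = 9.41e-06). In SW480 VIM stood at 359 ± 52.0 and 360 ± 71.2 CPM, and its responses differed by 1.43 ± 0.21 (adjusted p = 0.000555). VIM rose in SW620 beside KRT7, KRT19, KRT20 and KRT80. LMNA rose by 0.72 in SW620 (adjusted p = 0.00252, and 0.0621 without SW620 control replicate 2). Between the untreated lines SYNM and NES were lower in SW620 (-4.05 and -1.11), and SYNM stood at -4.81 without SW620 control replicate 1.

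In a list of transcription factors of keratin genes and gut epithelium, which also held a splicing regulator, 20 of 25 genes were tested. Of these 12 were called higher and 6 lower in untreated SW620, against 33.0% and 32.6% of all tested genes. The epithelial factor EHF stood at 0.239 ± 0.0901 CPM in the SW480 and 216 ± 5.43 CPM in the SW620 controls, the splicing regulator ESRP1 at 5.50 ± 0.518 and 198 ± 18.5 CPM, and ELF3 at 16.4 ± 0.836 and 102 ± 3.05 CPM. CDX2, the gut homeobox factor, stood at 142 ± 0.765 and 131 ± 4.11 CPM. With caffeine CDX2 fell in SW620 to 84.0 ± 5.60 CPM (log2 fold change -0.65 ± 0.12, SE, edgeR adjusted p = 0.00127), while KRT20 rose in the same libraries. In SW480 CDX2 stood at 141 and 142 CPM without and 108 and 106 CPM with caffeine, which did not overlap (-0.41 ± 0.12, adjusted p = 0.0604, and 0.0472 with DESeq2's size factors or 0.0165 by DESeq2). EHF, KLF5 and ESRP1 were called higher in SW620 with log2 values of 0.46, 0.45 and 0.37, and lost their calls without SW620 control replicate 1 (adjusted p = 0.195, 0.223 and 0.432), among other libraries, and ESRP1 also with the replicate block (0.0735). Of 19 genes that bind or regulate keratin filaments 2 rose with caffeine in SW620 and none was called in SW480. Over all tested genes 14.4% and 3.60% were called there, so these counts do not set the list apart.

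Marker lists moved in part with the keratins, and their part in the keratin results was not tested. Over all tested genes, 1.67% were called higher and 1.93% lower with caffeine in SW480. In SW620 8.10% were called higher and 6.25% lower. The 15 colorectal epithelium markers summed to 628 to 663 CPM in untreated and 495 to 541 CPM in caffeine-treated SW480, where 4 of 13 tested fell, and to 1916 to 1933 and 1907 to 1948 CPM in SW620, where 1 rose and 4 fell. Between the untreated lines 8 of the 13 were higher and 1 lower in SW620, where 65.6% of all tested genes were called in either direction. CEACAM5, PHGR1 and FABP1 had no read in the SW480 controls. The 10 markers of basal and squamous epithelium summed to 192 to 204 CPM in untreated and 208 to 215 CPM in caffeine-treated SW480. In SW620 they summed to 92.1 to 97.3 and 143 to 144 CPM, and 3 of 7 tested rose with caffeine. KRT14 and TP63, which are on this list, had no read in the SW480 controls, where TRIM29 and S100A2 held most of the sum. Of the fibroblast markers 1 of 3 tested and of the 8 endothelial markers 2 of 3 tested rose with caffeine in SW620, and none of 5 tested leukocyte markers did. The 10 leukocyte markers summed to 3.32 to 8.17 CPM and the endothelial markers to 17.4 to 42.7 CPM over all libraries, with ERG at 0 counts in every one. In SW480 none of the markers of these 4 other cell types was called with caffeine.

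The 2 genes outside the family whose log2 CPM followed each member most closely were found by Pearson's r over the 8 libraries, among 12445 genes. Since the libraries come from 2 lines, any gene that differs between the lines in the same direction reaches a high r, and r takes no account of the size of a change. KRT20 was followed by PLAU (r = 0.9995) and UBALD2 (0.995), KRT7 by CALB1 (0.999) and PHLDA1 (0.998), and KRT80 by ASGR1 (0.997) and SEMA4B (0.997). CALB1, which encodes the calcium buffer calbindin, rose in mean level from 25.02 ± 1.96 to 71.4 ± 6.14 CPM with caffeine in SW620 and stood at 0.0292 and 0.0748 CPM in SW480. KRT19 was followed by PLCD1 (0.993) and SERPINI1 (0.993), KRT8 by POU2F2 (0.997) and TNS2-AS1 (0.995), and KRT18 by METTL22 (0.968) and GREP1 (0.966). KRT23 was followed by FXYD5 (0.994) and LAPTM4A (0.992), and KRT5 by PSMC2 (0.999) and HUNK (0.999). HUNK, a protein kinase, stood at 105 ± 5.02 and 124 ± 1.19 CPM in SW480 and at 0.101 and 0.1099 CPM in SW620.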

How the data were processed

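Single-end reads of 75 bp from poly-A RNA and a directional kit (RNA integrity number at least 8, NextSeq 500) were counted per Ensembl gene by the authors. They deposited 1 file of raw counts per library, and Trim Galore, STAR 2.7.3a, featureCounts 2.0.5 and hg38 are named in the submitters' processing notes; annotation release and strand setting are not given in the sources used here. The 12 assignment totals per file name no gene and were left out. Of 62649 IDs 62625 were matched to symbols and 58225 to GENCODE 29, used for positions and exon lengths.

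Groups came from sample titles. edgeR 4.0.16 (R 4.3.3) was fitted to all 8 libraries (filterByExpr, TMM, robust quasi-likelihood F test, a mean per group) and p-values were adjusted by Benjamini-Hochberg over 17671 genes, threshold 0.05. SE and 95% intervals derive from that F test. Shares used CPM per kilobase of union exon length. Similarity used log2 CPM with a prior count of 2, among genes whose mean on that scale reached 1. Counting intervals and floors (3 counts over a group) cover counting error only. The scripts were tested on simulated data.

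Named were all members, other keratins with at least 10 counts in every library of 1 group, and up to 4 called genes per list and comparison. KRT6C, KRT14 and TP63, the marker genes (TRIM29, S100A2, COL1A1 and PDGFRB among them), and CALB1 and HUNK among the similar genes were given levels after their values were seen. The members and lists were chosen with earlier results of these data known. Alternatives were DESeq2 size factors, no low-count filter, DESeq2 1.42.0, limma-voom 3.58.1, a replicate block, separate fits per line, each library left out, and other lengths and scalings for shares. A fit without mitochondrial genes was chosen after seeing the data. Values of 1 gene of the transcription factor list are not reported here.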

Additional observations from a re-analysis of the deposited data

Results flagged for a closer look

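The caffeine responses of 2 keratins differed between the lines by edgeR's interaction test (SW620 minus SW480). For KRT5 the log2 difference was -1.09 (adjusted p = 0.0123): the level rose in SW480 from 2826 ± 183 to 4580 ± 67.1 CPM (mean ± SD, n = 2) and stood at 4.03 ± 0.756 and 3.07 ± 0.209 CPM in SW620. For KRT80 it was 1.00 (adjusted p = 0.00183), with 91.1 ± 6.60 and 88.0 ± 6.72 CPM in SW480 and a rise from 145 ± 7.55 to 282 ± 13.4 CPM in SW620. With 2 libraries per group no library could be tested as an outlier of its group.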

How the results depend on the processing

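Without 1 library, the members called numbered 0 to 4 in SW480 (1 with all libraries), 4 to 5 in SW620 (4), 7 to 8 between the untreated lines (8) and 1 to 3 for the difference of responses (2), and all genes called 50 to 1367 (636), 787 to 3225 (2537), 9687 to 11763 (11591) and 421 to 2156 (1185). In SW480 the calls among members fell to 0 without caffeine replicate 2 and rose to 4 without control replicate 2 and 2 without caffeine replicate 1, and all calls were 50, 1367 and 1052 there, 180 without control replicate 1 and 370 and 381 without SW620 control replicate 1 and 2. In SW620 all calls were 874 and 787 without control replicate 1 and 2 and 1362 and 1157 without caffeine replicate 1 and 2. In SW480 no filter gave 2 members and 1073 genes, and DESeq2 gave 2 members. A separate fit of SW620 called 4545 genes. The cause was not tested. The replicate numbers are not said to mark a shared day, and the correlation of replicate differences was 0.0265 within SW480 and 0.0134 within SW620. With the replicate block, 1, 4, 8 and 2 members and 590, 2249, 11397 and 1087 genes were called. Signs of some uncalled changes turned when 1 library was left out: in SW480 KRT7 ranged from -0.015 to 0.43 and KRT80 from -0.14 to 0.03, and the difference of responses from -0.23 to 0.11 for KRT8 and -0.27 to 0.16 for KRT18. For KRT20 the fitted difference ran from -0.94 to 1.97, and was 1.31 by limma-voom, but it rests on 1 read in SW480 and gives no direction. By the longest transcript the KRT5 share was 37.8% in SW480 and 0.0222% in SW620 with caffeine. Without 1 library it was 38.9% to 39.3% and 0.0240% to 0.0250% with caffeine, and 31.3% to 35.2% and 0.0380% to 0.0497% in the controls. Depth limits KRT20 in both lines, and KRT5 in SW620.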
